A study of Homo sapiens with 12 samples.

Results

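The sgRNA2 peaks are the regions called in the 2 chromatin immunoprecipitation sequencing (ChIP-seq) libraries in which the guide sgRNA2 was delivered together with HA-tagged dCas9. Every row of the 2 deposited peak lists was taken, 58 peaks from replicate 1 and 570 from replicate 2, which makes 628 of the 58042 peaks in the 9 lists of the series. The cells were HEK 293T, a human embryonic kidney line, at passage 17 to 21. They were transfected with Fugene6 and collected 3 days later, and DNA sheared to about 300 bp was pulled down with an antibody against the HA tag. The other lists came from the same line with sgRNA1 and sgRNA3 (2 replicates each) and with sgRNA4, sgRNA5 and sgRNA6 (1 library each). Guide and protein were supplied by transient transfection in all of these libraries, and the labels do not say whether replicates were separate cultures, so the spread between 2 replicates may be technical. The libraries of dCas9 without sgRNA and of cells with wild-type Cas9 were not analysed here, and no value below can be set beside a background without a guide.

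Cas9 is a bacterial nuclease that a single guide RNA (sgRNA) leads to DNA. It first recognises a short protospacer adjacent motif, then opens the neighbouring DNA and pairs it with the guide from the motif outwards, so that a short seed next to the motif can be enough for binding. The catalytically dead form, dCas9, stays on the DNA without cutting it, and ChIP-seq against its tag lists the places where it was held, the intended target and others. Open chromatin is easier for Cas9 to reach, and it is also easier to shear and to recover in ChIP-seq without any guide. Neither the sequence of sgRNA2 nor a genome of build hg19, on which the peaks were placed, was used here, so sites are named by position and the intended target is not marked.

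Each peak carries a score given by the authors' peak caller. Scores describe and rank peaks within 1 list, and a score set beside one of another list shows no difference in binding. No read counts were at hand, so depth is unknown. The 2 lists had the same shape: very few high peaks above a long tail close to 50, the lowest score that any list holds. In replicate 1 the highest score was 988, followed by 409, 122, 120 and 84.1, and the median was 56.3. In replicate 2 the highest was 753, followed by 183, 181, 168 and 146, with a median of 59.5. Scores of 100 or more were given to 4 of 58 peaks in replicate 1 and to 29 of 570 in replicate 2. Peak width ranged from 196 to 2497 bp in replicate 1 (median 612) and from 242 to 2833 bp in replicate 2 (median 820.5).

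**Figure D1:**
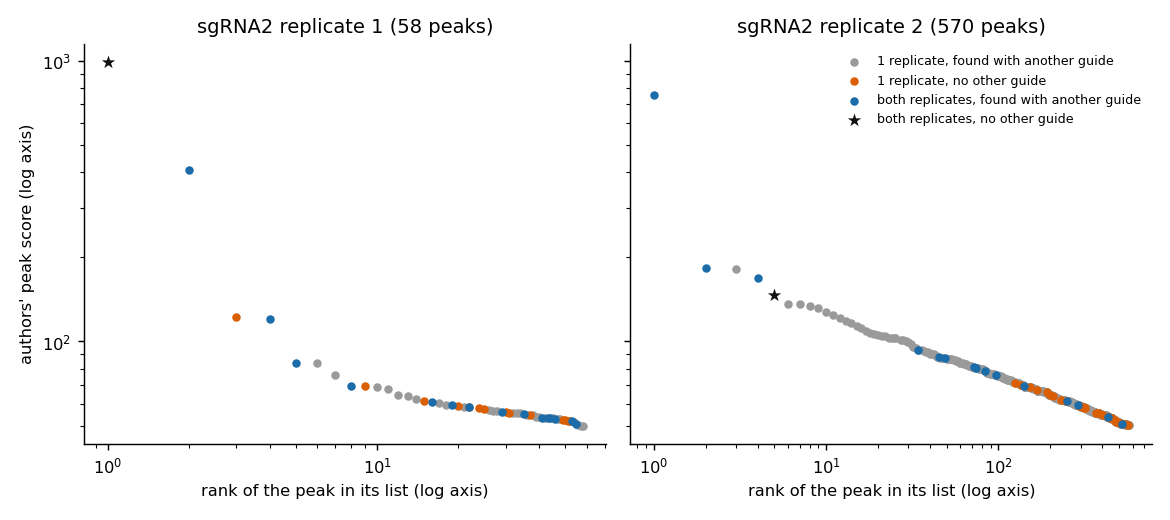
Score of every sgRNA2 peak (log axis) against its rank in its own list (log axis), replicate 1 on the left and replicate 2 on the right. Blue points have a peak in both replicates and with another guide, the star is the only site in both replicates with no other guide, orange points are peaks of 1 replicate found with no other guide and grey points the remaining ones; the star ranks 1 on the left and 5 on the right.

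Of the replicate 1 peaks, 16 of 58 overlapped a replicate 2 peak by at least 1 bp (27.6%, exact 95% interval 16.7 to 40.9). Over all replicate 1 peaks of sgRNA1, sgRNA2 and sgRNA3 the share found in the guide's other replicate was 34.9%. From the other side, the same 16 sites were 2.81% of the 570 replicate 2 peaks, against 3.05% over all replicate 2 peaks of the 3 guides. The sgRNA2 shares are thus near those of the replicated guides as a whole, which include its own peaks. In sgRNA1, 35 of 96 replicate 1 peaks and 35 of 1278 replicate 2 peaks were in the other replicate. In sgRNA3 it was 17 of 41 and 17 of 382. Among the replicate 1 lists the share was thus lowest in sgRNA2. The 16 sites lay on 12 chromosomes, with 3 on chromosome 8 and 2 each on chromosomes 1 and 5. The remaining 42 peaks of replicate 1 and 554 of replicate 2 were called in 1 replicate only.

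The site on chromosome 5 at 87240348 to 87240968 led replicate 1 with a score of 988. It was found again in replicate 2 at 87240329 to 87241045 with a score of 146 and rank 5. It was the only 1 of the 16 sites with no peak of any other guide. The site on chromosome 15 at 68132211 to 68132896 scored 409 (rank 2) in replicate 1 and 753 (rank 1) in replicate 2, and all 5 other guides had a peak there. That place ranked 2 and 1 in the sgRNA1 replicates, 3 and 1 in those of sgRNA3, 59 with sgRNA4, 1 with sgRNA5 and 109 with sgRNA6. In replicate 1 both sites stood apart from the rest of the list, while in replicate 2 only the chromosome 15 site did.

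Next came the site on chromosome 1 at 144931562 to 144932836, with scores of 120 (rank 4) and 183 (rank 2) in replicates 1 and 2, shared with all 5 other guides. Its partner ranked 16 and 8 in replicate 2 of sgRNA1 and sgRNA3 and 27 with sgRNA5. On chromosome 14 the site at 93260132 to 93260938 scored 84.1 (rank 5) and 168 (rank 4) and was shared with sgRNA3, sgRNA4 and sgRNA6. So 4 of the 5 highest peaks in each list were found in both replicates, and they were the same 4 sites. The remaining one of the 5 ranked 3 in either list and was seen in that list only. In replicate 1 it was a peak on chromosome 1 at 12215050 to 12215714 (score 122), which lay 3637 kb from the nearest replicate 2 peak and in no other guide's list. In replicate 2 it was a peak on chromosome 21 at 9825379 to 9826387 (score 181), on a chromosome where replicate 1 had no peak, and it was shared with sgRNA4, sgRNA5 and sgRNA6.

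Below these, the 12 other sites in both replicates had low scores in replicate 1, from 50.8 to 69.5, and were spread through the replicate 2 list. On chromosome 2 the site at 182757038 to 182757655 ranked 34 in replicate 2 (score 93.2). On chromosome 3 the site at 51975592 to 51976197 ranked 45 (87.8) and that on chromosome 10 at 46951349 to 46952113 ranked 49 (87.1). These 3 were shared with 4, 4 and 5 other guides.

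On chromosome 1 the site at 243418892 to 243419893 ranked 72 in replicate 2 (score 80.8). On chromosome 8, the sites at 67579380 to 67579871, at 103251271 to 103251685 and at 100025308 to 100025982 ranked 74 (80.6), 97 (76.1) and 141 (69.2). On chromosome 5 the site at 140070430 to 140071117 ranked 83 (78.8). Of these 5 sites, that at 100025308 was found with 3 other guides and the others with 4 each.

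The last 4 had replicate 2 ranks from the middle of the list to near its end. They were the sites on chromosome 13 at 62741369 to 62743865 (rank 250, score 61.3), chromosome 18 at 47013739 to 47013960 (rank 291, 59.3), chromosome 7 at 1215532 to 1216327 (rank 433, 53.9) and chromosome 11 at 124492535 to 124493121 (rank 523, 50.8). They were found with 2, 3, 2 and 1 other guides.

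The score was higher in replicate 2 at 13 of the 16 sites. The exceptions were the sites on chromosome 5 at 87240348, chromosome 7 at 1215532 and chromosome 11 at 124492535. Since the lists were scored separately, this is a count only. Across the 16 sites the scores had a Spearman rho of 0.60 and, on the log10 scale, a Pearson r of 0.71, with all points taken from the same pair of libraries. Without the 2 sites that led replicate 1 they were 0.43 and 0.80 over 14 sites.

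**Figure D2:**
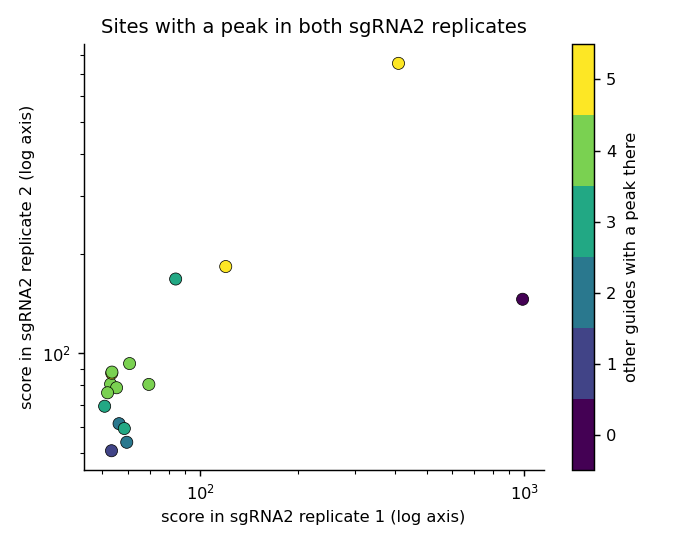
Scores of the 16 sites called in both sgRNA2 replicates, replicate 1 on the horizontal axis and replicate 2 on the vertical axis, both on log scales, coloured by how many of the 5 other guides had a peak there. The dark point far to the right is the chromosome 5 site (988 and 146, no other guide) and the yellow point at the top the chromosome 15 site (409 and 753, 5 other guides).

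The paired peaks sat closely on each other. Their centres were 16 to 504.5 bp apart (median 126), and a median of 97.0% of the replicate 1 peak lay inside the replicate 2 peak (range 64.7 to 100%). The replicate 2 peak was wider at 15 of 16 sites, by a median of 1.24 times, and at 7 sites it held the whole replicate 1 peak. The widest ratio, 3.42, was at 103251271 on chromosome 8, where 415 bp in replicate 1 stood against 1419 bp in replicate 2. The only peak narrower in replicate 2 was that on chromosome 7 (738 against 796 bp).

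Peaks of replicate 1 that missed replicate 2 did not miss it narrowly. None of the 42 lay within 10 kb of a replicate 2 peak, 3 lay within 100 kb and 17 within 1000 kb. The nearest was 59.3 kb away and the median distance was 1599 kb. Scores of the 42 had a median of 56.0 and a highest value of 122. Over all 16 sites in both replicates the replicate 1 median was 57.4 and the highest score 988. Below the leading sites, the replicate 1 scores of the 16 ran only from 50.8 to 69.5. Widths of the 42 had a median of 594 bp, against 680.5 bp for the 16. None of the 42 reached 1000 bp, against 3 of the 16.

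Most sgRNA2 peaks were also called with another guide. In replicate 1 this held for 43 of 58 peaks (74.1%, exact 95% interval 61.0 to 84.7), and in replicate 2 for 536 of 570 (94.0%, 91.8 to 95.8). Over all peaks of the 9 lists the share was 41.1%, and over the lists of sgRNA1 and sgRNA3 alone 81.7%. Neither is a like set. The first is mostly the 33611 sgRNA6 peaks (27.1% found), and the second mostly replicate 2 peaks. By list, the share in sgRNA1 and sgRNA3 was 25 and 31.7% in replicate 1, and 87.6 and 81.7% in replicate 2. The lists of the 5 other guides together covered 34.3 Mb, or 1.13% of the summed chromosome lengths as far as the last peak.

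The classes differed in how many guides shared a site. The 16 sites in both replicates were found with a mean of 3.31 other guides (median 4), replicate 2 peaks without a counterpart with 2.47 (median 3), and replicate 1 peaks without a counterpart with 1.74 (median 1.5). Of the 42 peaks in replicate 1 only, 28 were found with another guide (66.7%, 50.5 to 80.4). Of the 554 in replicate 2 only, 521 were (94.0%, 91.7 to 95.9), and of the 16 in both replicates 15 were (93.8%, 69.8 to 99.8). The intervals of the first and second of these do not overlap. They cover counting error only, since peaks of 1 library are not replicates.

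Sharing with 4 or 5 other guides was seen at 9 of the 16 sites in both replicates. It was seen for 17 of all 58 replicate 1 peaks (29.3%) and 135 of all 570 replicate 2 peaks (23.7%), against 1.76% of all peaks in the 9 lists. Most peaks of the 9 lists are of sgRNA4 (13660), sgRNA5 (8346) and sgRNA6 (33611). Such a peak needs partners in at least 2 of the far shorter sets of sgRNA1, sgRNA2 and sgRNA3 (1374, 628 and 423 peaks). The 1.76% is held low by this and is no like baseline. This share was not taken for sgRNA1 and sgRNA3. Their mean number of other guides was 0.5 and 0.585 in replicate 1, against 2.17 in sgRNA2, and 2.20 and 2.33 in replicate 2, against 2.50.

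**Figure D3:**
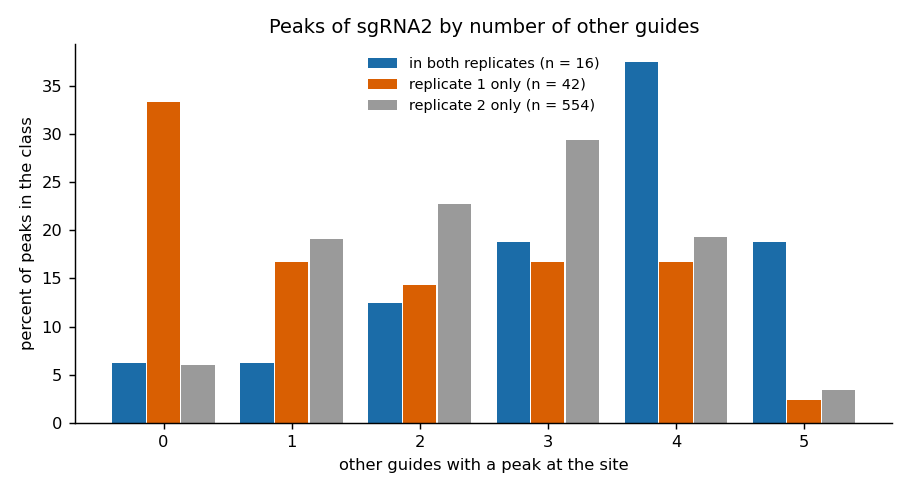
Percent of sgRNA2 peaks (vertical axis) by the number of other guides with a peak at the site (horizontal axis, 0 to 5), for the 16 sites in both replicates (blue), the 42 peaks of replicate 1 only (orange) and the 554 of replicate 2 only (grey). The orange bar at 0 stands for 14 of 42 peaks, and the blue bars are highest at 4 other guides, with 6 of 16 sites.

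The partners were mostly the guides with long lists. Of the replicate 2 peaks, 467 (81.9%) overlapped a sgRNA6 peak, 380 (66.7%) a sgRNA4 peak and 358 (62.8%) a sgRNA5 peak, while 168 (29.5%) overlapped a sgRNA1 peak and 50 (8.77%) a sgRNA3 peak. In replicate 1 the counts were 39 with sgRNA6, 34 with sgRNA5, 30 with sgRNA4, 13 with sgRNA1 and 10 with sgRNA3. The lists of sgRNA6, sgRNA4 and sgRNA5 held 33611, 13660 and 8346 peaks. The shares followed this order in replicate 2, while in replicate 1 sgRNA5 had more partners than sgRNA4, and the part of list length in the shares was not tested.

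The commonest combination in replicate 2 was sgRNA4, sgRNA5 and sgRNA6 together without sgRNA1 or sgRNA3, at 127 peaks (22.3%). It was followed by those 3 with sgRNA1 at 92 peaks (16.1%) and sgRNA6 alone at 67 (11.8%). In replicate 1 the combination with sgRNA1 led with 9 peaks, ahead of the 3 long lists without it at 8. A replicate 2 peak shared with a single guide was shared with sgRNA6 in 67 cases, sgRNA4 in 26, sgRNA5 in 13 and sgRNA1 in 1. No replicate 2 peak was shared with sgRNA3 alone, and 43 of the 50 peaks shared with sgRNA3 were shared with at least 3 further guides.

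For the guides with 2 replicates, nearly all of this overlap came from their replicate 2 lists. Replicate 2 peaks of sgRNA2 met 168 times a peak of sgRNA1 replicate 2 (1278 peaks) and 2 times a peak of sgRNA1 replicate 1 (96 peaks). They met a peak of sgRNA3 replicate 2 (382 peaks) 50 times and of sgRNA3 replicate 1 (41 peaks) 1 time. Replicate 1 peaks of sgRNA2 showed the same split, 13 against 1 for sgRNA1 and 10 against 1 for sgRNA3. The sites met in replicate 1 lists by sgRNA2 replicate 1 were in both cases the chromosome 15 site.

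Partner peaks tended to be high in the long lists. Where a sgRNA2 peak met several partners in a list, only the best-ranked one was counted, which favours high ranks. Of the 467 sgRNA2 replicate 2 peaks that overlapped a sgRNA6 peak, 150 (32.1%) had a partner in the top 10% of that list by score. For 77 (16.5%) the partner was in its lower 50%. The corresponding figures were 118 and 71 of 358 for sgRNA5, and 106 and 94 of 380 for sgRNA4. The best partner ranks were 24 in sgRNA6, 30 in sgRNA4 and 1 in sgRNA5. With sgRNA1 replicate 2 the partners were more evenly placed, 37 of 168 in the top 10% and 61 in the lower 50%.

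High replicate 2 peaks were shared with more guides than low ones. When the list was divided by score into 5 parts of 114 peaks, the mean number of other guides was 3.07 in the highest part, then 2.50, 2.42 and 2.37, and 2.12 in the lowest. In the highest part 113 of 114 peaks were found with another guide, the exception being the chromosome 5 site at 87240329, and in the lowest part 105 were. Sites in both replicates were also concentrated at the top: 11 of the 16 were in the highest part and 1 in the lowest.

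The partner lists differed in how far their shares followed the score. From the highest to the lowest part, the share found with sgRNA3 went from 20.2% to 3.51%, that with sgRNA1 from 43.0% to 21.9% and that with sgRNA5 from 78.9% to 47.4%. The share found with sgRNA6 went only from 86.0% to 80.7%. In replicate 1, divided into 29 higher and 29 lower peaks, the mean number of other guides was 2.38 and 1.97, and 21 and 22 peaks were shared, so the shared peaks were about as many in the lower as in the higher part.

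**Figure D4:**
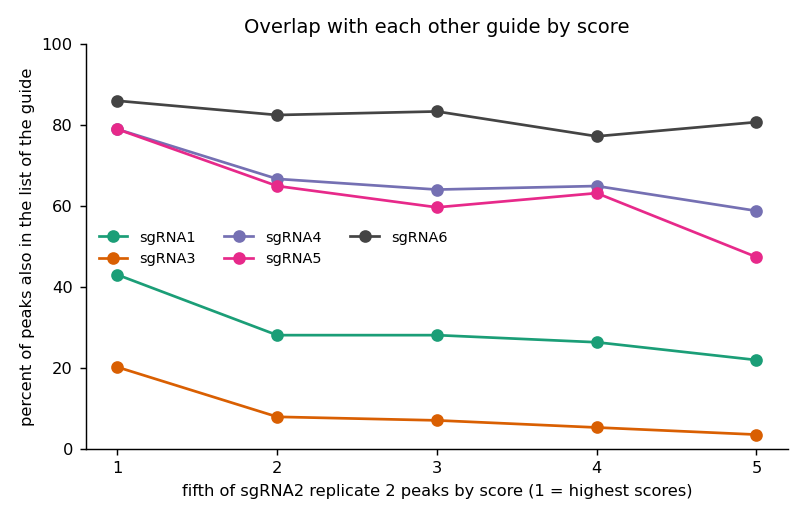
Percent of sgRNA2 replicate 2 peaks also found in the list of each other guide (vertical axis), for 5 parts of 114 peaks from the highest scores (1) to the lowest (5) on the horizontal axis. The sgRNA6 line stays between 77.2 and 86.0%, while the sgRNA3 line goes from 20.2 to 3.51%.

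Width followed score in part. Across the 570 replicate 2 peaks the Spearman rho between score and width was 0.37, between score and number of other guides 0.24, and between width and number of other guides 0.29; all points come from 1 library. The median width was 1008 bp in the highest part by score and 693 bp in the lowest. By number of other guides it was 664 bp at 0, 736 at 1, 779 at 2, 877.5 at 3, 965 at 4 and 974.5 at 5. A wider peak has more bases that can overlap another list, and the part of this in the sharing was not tested.

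The widest replicate 2 peak, on chromosome 19 at 17447054 to 17449886 (2833 bp), had a score of only 51.2 and rank 504. It was followed by peaks on chromosome 7 at 56438044 to 56440839 (2796 bp), chromosome 17 at 20345860 to 20348576 (2717 bp), chromosome 13 at 62741061 to 62743750 (2690 bp) and chromosome 1 at 228327150 to 228329750 (2601 bp). Of these 5 only the last had a rank better than 100, namely 63. In replicate 1 the chromosome 13 site was also the widest (2497 bp), ahead of the chromosome 1 sites at 144931562 (1275 bp) and 243418892 (1002 bp). The other 2 of its 5 widest, on chromosome 11 at 65627182 to 65628179 (998 bp) and chromosome X at 118616329 to 118617211 (883 bp), were in replicate 1 only. The chromosome 13 site was thus very wide in both replicates with a score near the median of either list, and it was shared with sgRNA4 and sgRNA6.

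The remaining peaks among the 10 highest of replicate 2 were all shared and all absent from replicate 1. They lay on chromosome 6 at 32163065 to 32164159 (score 136, 3 other guides), chromosome 9 at 66492932 to 66494840 (135, 5 guides), chromosome 10 at 75006464 to 75007302 (134, 4 guides), chromosome 1 at 16993269 to 16994056 (131, 4 guides) and chromosome 14 at 21438764 to 21440210 (127, 3 guides). Among the 10 highest of replicate 1, the peaks absent from replicate 2 and shared numbered 3. They were a peak of chromosome 3 starting at 48754544 (69.0, 4 guides) and peaks of chromosome 1 starting at 152020198 (84.0, 5 guides) and 89149617 (75.9, 4 guides). The chromosome 1 peak at 89149617 met a sgRNA5 peak of rank 35 and a sgRNA6 peak of rank 138. Its rank in replicate 1 was 7.

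All 5 other guides had a peak at 22 replicate 2 and 4 replicate 1 peaks of sgRNA2. Of the 4, those on chromosome 1 at 144931562, chromosome 10 at 46951349 and chromosome 15 at 68132211 were in both replicates, and that on chromosome 1 at 152020198 was in replicate 1 only. The 22 had a median score of 74.3 and a median width of 974.5 bp. Of them, 5 lay on chromosome 1, at 85741761, 93811014, 113497941, 144931421 and 235530498, and 4 on chromosome 17, at 19551026, 19911666, 39844657 and 57183743. Further sites lay on chromosome 13 at 88323089 and 95200918, on chromosome 21 at 37432044 and 38639530 and on chromosome 6 at 42981507 and 131948858. The others were on chromosome 3 at 135915496, chromosome 5 at 89769685, chromosome 9 at 66492932, chromosome 10 at 46951214, chromosome 11 at 14541554, chromosome 15 at 68132055 and chromosome 18 at 32620928. Their ranks with sgRNA2 ran from 1 to 498, so a site found with all guides was not always a high one.

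Peaks with no counterpart in any other guide's list numbered 15 in replicate 1 and 34 in replicate 2, and only the chromosome 5 site was in both sets. In replicate 2 they were low and narrow, with a median score of 55.6 and a median width of 664 bp, against 59.8 and 835 bp for the shared ones. In replicate 1 their median score was 57.4 and their median width 598 bp, against 55.7 and 618 bp. A peak near the lowest score of its list, seen in 1 library, has no replicate check.

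After the chromosome 5 site and the chromosome 1 peak at 12215050, the highest unshared replicate 1 peak was the one on chromosome 6 at 27646192 to 27646818 (score 69.5, rank 9), 205 kb from the nearest replicate 2 peak. The other 12 scored between 51.9 and 61.3. Of these, 4 were on chromosome 13, at 70949661, 77586941, 80020234 and 85029364. A further 2 were on chromosome 20, at 21011322 (196 bp, the narrowest peak of the list) and 49575334, and 2 on chromosome 3, at 19930538 and 60499556. The last 4 were on chromosome 1 at 31403802, chromosome 10 at 135523013, which is the last peak of that chromosome in any list, chromosome 18 at 37106402 and chromosome X at 117227795.

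In replicate 2 the next unshared peaks after the chromosome 5 site ranked 125, 136 and 152. The first 2 were on chromosome 1 and started at 95537968 (score 71.4) and 232940940 (70.1). The other started at 140717985 on chromosome 8 (68.8). The following 6 were on chromosome 14 at 74035989 (67.3), chromosome 13 at 98086644 (65.8), chromosome 7 at 139991929 (64.5), chromosome 9 at 67781701 (64.0) and 116459865 (61.9) and chromosome 14 at 94546976 (61.5). None of these 9 was closer than 308.8 kb to a replicate 1 peak. The chromosome 5 site, with 146, stood far above the next unshared peak.

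The 4 unshared replicate 1 peaks on chromosome 13 fell within 14.1 Mb, from 70949661 to 85030047, an interval chosen after its values were seen. Replicate 2 had 4 peaks in the same interval, at 73300881, 76056458, 79176394 and 81228785, all shared with other guides and none overlapping those of replicate 1. Each of the 4 replicate 1 peaks lay 842 to 3293 kb from its nearest replicate 2 peak. The interval held 4 of 96 peaks of sgRNA1 replicate 1, 10 of 1278 of sgRNA1 replicate 2, 0 of 41 and 3 of 382 in the sgRNA3 lists, 38 with sgRNA4, 39 with sgRNA5 and 102 with sgRNA6. Replicate 1 of sgRNA1 was thus, after that of sgRNA2, the list with the largest share of its peaks there.

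By chromosome, replicate 2 of sgRNA2 was densest for its length on chromosome 17, with 42 peaks or 2.76 times its share of the summed length, then on chromosome 1 (99 peaks, 2.12 times), chromosome 19 (21, 1.89 times), chromosome 22 (18, 1.87 times) and chromosome 16 (28, 1.65 times). Chromosomes 16, 17, 19 and 22 are known to be rich in genes for their length. With sgRNA6 the ratios on the same chromosomes were 2.89, 1.42, 3.47, 2.36 and 1.65. Replicate 2 thus had a higher ratio than sgRNA6 on chromosome 1 and a lower one on chromosome 19. The replicate 2 lists of sgRNA1 and sgRNA3 had 17.4 and 20.4% of their peaks on chromosome 1, against 17.4% in sgRNA2. On chromosome 19 they had 5.32 and 4.97%, against 3.68% in sgRNA2 replicate 2 and 6.76% with sgRNA6. The high share on chromosome 1 was thus not particular to sgRNA2. Fewest for their length were chromosome Y with 0 peaks and chromosome X (4 peaks, 0.138 times). They were followed by chromosome 2 (20, 0.438 times), chromosome 12 (15, 0.597 times) and chromosome 4 (22, 0.614 times). No list had a peak beyond 2.60 Mb on chromosome Y, which thus made up only 0.0857% of the summed length. The exact interval of its replicate 2 share, 0 to 0.645%, includes that value. The 0 peaks on chromosome Y therefore do not show a low density there.

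Replicate 1 shared the high count on chromosome 1, with 9 of 58 peaks (1.89 times), and the low count on chromosome 2 (2 peaks, 0.431 times). It did not share that on chromosome 17, where it had 1 peak. Its largest ratios were on chromosomes 20 (3 peaks, 2.50 times), 16 (4 peaks, 2.32 times) and 13 (5 peaks, 2.28 times), and it had no peak on chromosomes 4, 21, 22 and Y. With 58 peaks these counts are small, and the exact 95% interval for chromosome 13 ran from 2.86 to 19.0% of the list around 8.62%, against 2.81% in replicate 2 (1.61 to 4.52).

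The 2 lists had unlike shares of their peaks on chromosome X. This chromosome held 4 of 58 replicate 1 peaks (6.90%, exact 95% interval 1.91 to 16.7) and 4 of 570 replicate 2 peaks (0.702%, 0.192 to 1.79). The 2 sets of 4 did not overlap, but over the whole list only 16 of 58 replicate 1 peaks (27.6%) met a replicate 2 peak. The other 7 lists had 1.88 to 3.14% of their peaks on chromosome X. The replicate 1 share was above and the replicate 2 share below all of these, and the 2 intervals do not overlap each other. Both cover counting error only. Chromosome X was picked from all chromosomes after its values were seen, and the intervals were not adjusted for that. With 4 peaks in each list, they cannot decide whether the replicates differ there.

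**Figure D5:**
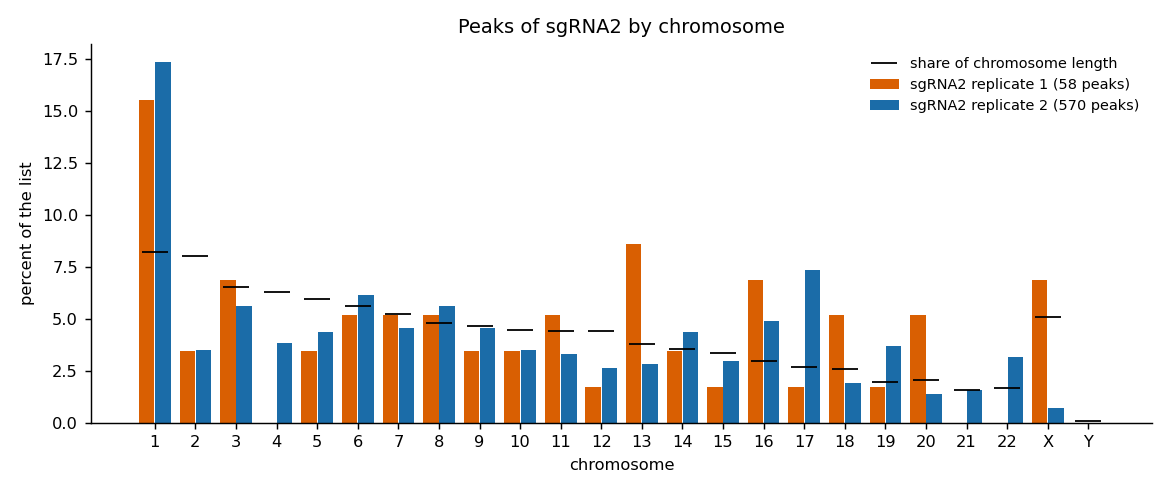
Percent of the peaks of each sgRNA2 list (vertical axis) on each chromosome (horizontal axis), replicate 1 in orange and replicate 2 in blue, with short black lines for each chromosome's percent of the summed length up to the last peak in any list. Both lists rise above the line on chromosome 1 (15.5 and 17.4% against 8.21%), and on chromosome X replicate 1 reaches 6.90% and replicate 2 0.702%.

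Peaks of replicate 2 often had neighbours. Of 547 gaps between adjacent peaks on a chromosome, 182 (33.3%) were under 1000 kb, 36 under 100 kb and 6 under 10 kb, with a median of 2051 kb. Runs of at least 3 peaks within 1 Mb numbered 33 and held 111 of the 570 peaks, with 8 runs on chromosome 1, 6 on chromosome 17 and 3 on chromosome 16. The longest, of 6 peaks, was on chromosome 17 at 79633027 to 80455239. Runs of 5 began at 227750619 on chromosome 1 and 29465463 on chromosome 16.

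Of the 111 peaks in runs, 108 were found with another guide, a share close to the 94.0% of the whole list, and 1 was in both replicates, on chromosome 5 in the run from 139348113 to 140071340. Replicate 1 had no gap under 1000 kb, its closest neighbours being 1388 kb apart, and hence no run. A list of 58 peaks leaves wider gaps than one of 570, so the lists cannot be compared in this respect.

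The longest stretch of each chromosome without a peak in any list served as a landmark, since unsequenced and centromeric DNA gives no peaks; on some chromosomes it may lie elsewhere. Within 5 Mb of it lay 4 of 58 replicate 1 peaks (6.90%) and 55 of 570 replicate 2 peaks (9.65%), against 6.86% of all peaks in the 9 lists. In replicate 2, 17 of the 114 highest peaks (14.9%) and 4 of the 10 highest were within this distance, and in the 4 further parts by score the share was 7.02, 7.89, 11.4 and 7.02%. In replicate 1 the order was the other way, with 1 of the 29 higher peaks (3.45%) and 3 of the 29 lower ones (10.3%). The 4 among the 10 highest of replicate 2 included chromosome 21 at 9825379 (281 kb from the stretch) and chromosome 9 at 66492932 (917 kb). The others of these 4 were on chromosome 14 at 21438764 (1995 kb) and chromosome 1 at 144931421 (2275 kb). Reads from repeated sequence next to such stretches can be placed wrongly, and the handling of reads with several matches is not stated in the labels.

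The sgRNA2 libraries were compared with those of sgRNA1 and sgRNA3, which also had 2 replicates, with the library as the unit. The contrast is between guides, and the 2 libraries of a guide are not independent units for it. The lists of these guides were also searched for one another's shares, so the sharing values depend on each other. For both reasons the p-values below describe these libraries only. The share of peaks found with another guide was 74.1 and 94.0% in sgRNA2 replicates 1 and 2, 25 and 87.6% in those of sgRNA1, and 31.7 and 81.7% in those of sgRNA3. It was thus highest in sgRNA2 within either replicate number, by a wide margin in replicate 1, while replicate 1 of sgRNA2 lay below replicate 2 of each guide. The mean was 84.1% ± 14.1 (SD, n = 2) for sgRNA2 and 56.5% ± 32.7 (SD, n = 4) for the others, a difference of 27.6 points (two-sided exact permutation test, p = 0.333). The SD of the others came mostly from the gap between their replicate numbers. With arrangements within each replicate number, as a block, the exact permutation p was 0.111. The smallest p these tests can give is 0.0667 without the block and 0.111 with it, so no difference could pass 0.05 in either. The difference was 9.38 points without the replicate 1 libraries and 45.8 points without those of replicate 2.

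The other 3 measures were tested in the same way, with the same limits. The mean number of other guides per peak was 2.17 and 2.50 in sgRNA2, 0.5 and 2.20 in sgRNA1, and 0.585 and 2.33 in sgRNA3 (difference 0.93, exact permutation p = 0.267; 0.23 without replicate 1 and 1.63 without replicate 2). Median width was 612 and 820.5 bp in sgRNA2, 463 and 719.5 bp in sgRNA1 and 528 and 681.5 bp in sgRNA3 (difference 118 bp, exact permutation p = 0.333). The share within 5 Mb of the longest peak-free stretch was 6.90 and 9.65% in sgRNA2, 11.5 and 7.51% in sgRNA1 and 17.1 and 12.8% in sgRNA3 (difference -3.94 points, exact permutation p = 0.267; -0.520 without replicate 1 and -7.37 without replicate 2). After Benjamini-Hochberg adjustment over the 4 exact tests p was 0.333 for each.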

How the data were processed

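Peak lists of 9 HA ChIP-seq libraries were analysed; 3 of the 12 samples described (dCas9 without sgRNA and 2 amplicon samples) were not. Per the submitters' processing notes, the authors used Bowtie, Bowtie2 and MACS with build hg19; versions, settings, read filters and use of a control were not stated there. The deposited lists give chromosome, start, end and a score per peak as the authors' caller wrote it, with no score below 50. Starts were taken to count from 0 and are printed counted from 1. Lists hold no counts, so depth is unknown; it can set how many peaks are called.

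Peaks matched when they shared at least 1 bp. Chromosome length was taken up to the last peak of any list. Intervals of shares are exact binomial (Clopper-Pearson, 95%). Libraries were compared by exact permutation tests of group means. Same-numbered libraries deviated together only weakly in peaks per chromosome. Pearson r over 24 chromosomes was 0.40 for sgRNA1 with sgRNA2, 0.44 for sgRNA1 with sgRNA3 and 0.32 for sgRNA2 with sgRNA3. Replicate 1 lists were all shorter than replicate 2 lists, and the part of list length in these values was not tested. The replicate number was used as a block in an alternative. The labels do not say what the number marks.

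Named were all sites in both replicates, the 10 highest and 5 widest peaks of each list, unshared peaks (all of replicate 1, the 10 highest of replicate 2), sites found with all 5 other guides, the 5 densest and 5 sparsest chromosomes, and the longest runs of peaks. Members and lists were chosen with earlier results of these data known. Code was tested on simulated lists of the size of the sgRNA2 lists: 0 of 1160 overlap calls differed from a brute-force search. Python 3.11.15, numpy 2.4.6, pandas 2.3.3, scipy 1.17.1 and matplotlib 3.10.9 were used.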

Additional observations from a re-analysis of the deposited data

How the results depend on the processing

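For the number of sites in both replicates and the 2 shares found with another guide, 9 of 16 alternative values stayed within the limit set for them and 7 moved. Keeping only the higher-scoring 50% of every list left 7 sites in both replicates, of 29 replicate 1 peaks, and put the share of replicate 2 peaks found with another guide at 90.9%. Requiring 50% of both peaks to overlap gave shares of 58.6% in replicate 1 and 86.7% in replicate 2, and 12 sites in both replicates. Without the sgRNA6 list the replicate 2 share was 82.3%. Searching only the lists of sgRNA1 and sgRNA3 gave 32.8% in replicate 1 and 33.3% in replicate 2. Fewer peaks were then searched, and the part of list length in the lower shares was not tested.

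The 4 differences between libraries kept their sign under all 18 alternative values, but several changed much in size, and their tests are too small to pass 0.05 under any setting. With the replicate number as a block, the exact permutation p was 0.111, the smallest that 9 arrangements allow, for the share found with another guide (difference 27.6 points), the number of other guides (0.93) and the median width (118 bp), and 0.333 for the share near the longest peak-free stretch (-3.94 points); with this smallest p the block could change no call. Leaving out replicate 1 or replicate 2, the difference in the share found with another guide was 9.38 or 45.8 points, that in the number of other guides 0.23 or 1.63, that in median width 120.0 or 116.5 bp and that in the share near the stretch -0.520 or -7.37 points, with no test. The first 2 differences, as well as the last, therefore rest mostly on replicate 1. Unknown read depth limits every count of peaks.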
